A study of Homo sapiens with 6 samples.

Results

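Of the 377 human miRNA assays on the qPCR cards, 41 measure miRNAs of the large placental cluster on chromosome 19 (C19MC) or of the pluripotency clusters, which run from miR-302 to miR-367 and from miR-371 to miR-373. They were chosen by name alone. Assays named miR-302, miR-367, miR-371, miR-372 or miR-373 make up a group of 7, here called the pluripotency group. Those named miR-512 or miR-515 to miR-526 make up 34 C19MC assays. The rule also covered miR-498 and miR-527, but no assay it selected has either name. The assay hsa-miR-520a# has a name outside that rule and was left out; it was undetermined in all 6 samples.

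C19MC is a primate-specific, imprinted cluster that is transcribed from the paternal allele, mainly in the trophoblast of the placenta, and its many members arose by local duplication. The pluripotency clusters are abundant in pluripotent stem cells and are switched off on differentiation. Many members of all these clusters carry the core AAGUGC in or next to the seed, the bases near the 5′ end of a miRNA that pair with target mRNAs, and they repress inhibitors of the cell cycle such as CDKN1A. The same core is found in the miR-17 family, which is widely expressed in dividing cells.

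The cells were HEK-293FT, a line derived from human embryonic kidney that carries the SV40 large T antigen. In 3 samples TruB1, a pseudouridine synthase that modifies tRNA, was knocked down with siRNA delivered by Lipofectamine RNAiMAX. The other 3 samples are labelled control, and the labels do not say what those cells received. Control and knockdown samples both carry a series number from 1 to 3, and nothing in the labels says that samples of a group came from separate cultures, so p-values measure the spread between these samples only. TruB1 mRNA is not among the values used here.

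The readout is the threshold cycle (Ct), the PCR cycle in which a well's fluorescence passes the detection threshold. More template gives a lower Ct, and a well that stays below the threshold for 40 cycles is recorded as undetermined. Each miRNA has 1 well per sample, and a Ct under 35 is called detected here. Between 188 and 226 of the 377 assays were detected in a sample. The mean Ct of the reference, U6 small nuclear RNA, ran from 12.2 to 15.4 across samples. Among marker miRNAs of kidney epithelium, all 5 that matched an assay (miR-192, miR-194, miR-204, miR-10a and miR-10b) were determined in all 6 samples, with Ct values between 21.8 and 29.5. The liver marker miR-122 and the heart muscle marker miR-208 were undetermined in all 6, whereas miR-208b was determined in 2 samples at a mean Ct of 31.6. The neuronal marker miR-9 was determined in all 6 at Ct 23.2 to 25.9, and miR-124a in 5 at a mean Ct of 28.8. The muscle markers miR-133a and miR-1 were determined in 6 and 3 samples, and the blood cell markers miR-223, miR-142-3p and miR-451 in 6, 5 and 1.

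All 41 assay targets were found in RefSeq miRNA sequences (GRCh38.p14), 38 as a mature miRNA and 3 within a hairpin only. The targets of miR-302a, b, c and miR-367 lie on the minus strand at chr4:112647877-112648511, a span of 0.635 kb inside the annotated LARP7 gene; whether that is exon or intron was not resolved. The C19MC targets lie on the plus strand at chr19:53666692-53762418, over 95.7 kb and 39 miRNA loci. The targets of miR-371-3p, miR-372 and miR-373 follow on the same strand at chr19:53787716-53788770, beginning 25.3 kb after the last C19MC target.

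The assay targets of the miR-302 members, of the C19MC members determined in at least 4 samples and of some close relatives follow, since near-identical targets gave different detection. They are the deposited target sequences, written 5′ to 3′, and capitals mark the seed (bases 2 to 8).
miR-302a: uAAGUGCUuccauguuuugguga
miR-302b: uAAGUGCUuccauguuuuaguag
miR-302c: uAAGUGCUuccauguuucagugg
miR-372: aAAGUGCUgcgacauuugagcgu
miR-518b: cAAAGCGCuccccuuuagaggu
miR-518f: gAAAGCGCuucucuuuagagg
miR-518c: cAAAGCGCuucucuuuagagugu
miR-519a: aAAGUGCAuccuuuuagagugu
miR-519c: aAAGUGCAucuuuuuagaggau
miR-517a: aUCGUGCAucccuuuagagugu
miR-517c: aUCGUGCAuccuuuuagagugu
miR-523: gAACGCGCuucccuauagagggu
miR-519d: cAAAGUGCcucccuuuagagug
miR-17: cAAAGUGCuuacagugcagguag

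Most of the assays were silent. In all 6 samples 23 of the 41 were undetermined (56.1%), against 78 of the 336 other human assays (23.2%). By cluster, 5 of the 7 assays of the pluripotency group (71.4%) and 18 of the 34 C19MC assays (52.9%) were silent throughout. Only 1 of the 41, miR-518b, was detected in every sample, against 156 of the 336 others (46.4%). Since the wells were read to a fixed last cycle, silence here means no signal in 40 cycles and does not show absence of the miRNA.

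The silent members of the pluripotency group were miR-302a, miR-367, miR-371-3p, miR-372 and miR-373, so no assay of the chromosome 19 pluripotency cluster gave a signal in any sample. The silent C19MC members were miR-512-3p, miR-512-5p, miR-515-5p, miR-516a-5p, miR-516b, miR-518a-3p, miR-518a-5p, miR-518c, miR-518d, miR-518d-5p, miR-519c, miR-520a, miR-520d-5p, miR-520e, miR-521, miR-524-5p, miR-525-3p and miR-526b. Of 6 trophoblast markers in C19MC, miR-512-3p and miR-515-5p were silent, miR-525 was determined once, and miR-517a, miR-518b and miR-519d were determined in at least 4 samples.

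Where a signal appeared, it was late. Of 246 wells, 44 were determined (17.9%), with a lowest Ct of 30.04, a median of 34.31 and a highest of 37.06. Among the other assays 1222 of 2016 wells were determined (60.6%), with a median Ct of 28.3. The 5 determined wells of the pluripotency group had a median Ct of 32.7, and the 39 determined C19MC wells a median of 34.4. Of the 18 members with any signal, 9 were determined in a single sample, and 4 had no Ct under 35 in any sample (miR-519e, miR-525, miR-520b and miR-520f).

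**Figure D1:**
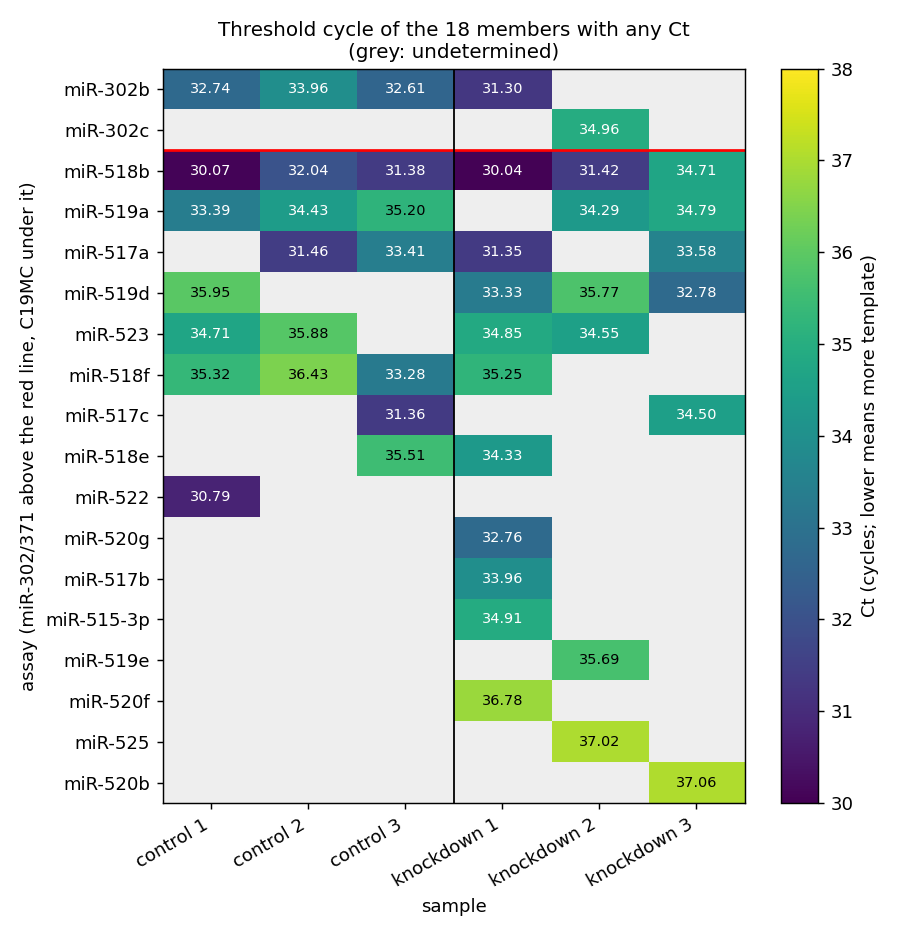
Ct in each of the 6 samples (columns) for the 18 assays of the clusters with at least 1 determined well (rows); blank cells are undetermined wells. Only miR-518b has a value in all 6 columns, and no value is below 30.04.

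**Figure D2:**
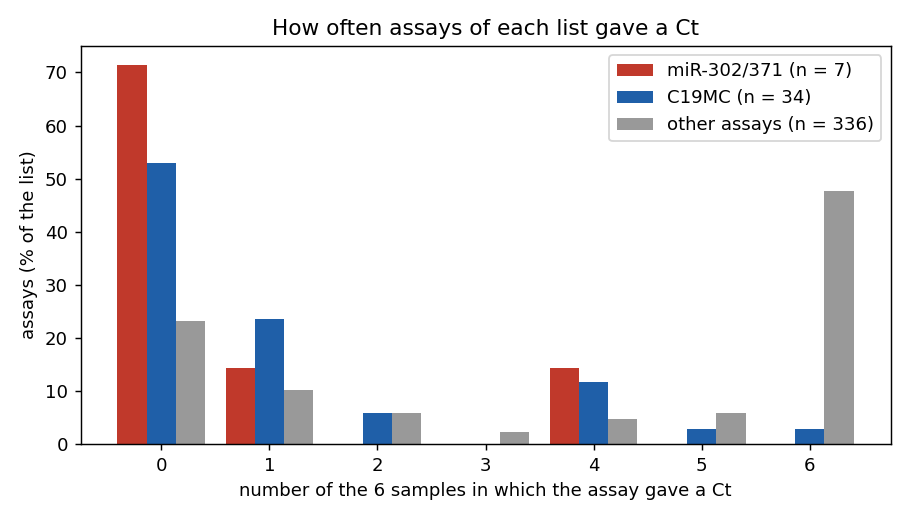
Percent of assays (vertical axis) by the number of samples in which they were determined (horizontal axis), for the 7 assays of the pluripotency group (drawn under the names of its clusters), 34 C19MC and 336 other assays. The clusters pile up at 0 samples (71.4% and 52.9%), and 23.2% of the other assays are there.

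In the pluripotency group miR-302b was the one member detected in more than 1 sample. Its Ct was 32.74, 33.96 and 32.61 in controls 1 to 3 and 31.30 in knockdown 1, and it was undetermined in knockdowns 2 and 3. Relative to U6, on the log2 scale, the controls were at -18.00, -19.99 and -20.46, and knockdown 1 at -16.42. The single knockdown value thus lay above all 3 controls. The other knockdown wells had no signal, so their levels are not known. With 1 determined knockdown well miR-302b could not be tested. With the undetermined wells set to Ct 40 its log2 change was -3.09 (SE 2.503), with an adjusted p of 0.999 in limma (Benjamini-Hochberg).

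miR-302c had 1 determined well, in knockdown 2, at Ct 34.96. miR-302a, which is encoded in the same 0.635 kb, had none. The 3 targets differ only near the 3′ end. Counting from 1 at the 5′ end, miR-302a and miR-302b share their first 18 bases and differ by G19A, G22A and A23G, and miR-302a and miR-302c share the first 17 and differ by U18C, G19A and A23G. The efficiency of each assay is not known here, so Ct values of different assays are given as read and do not rank the miRNAs by amount.

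In C19MC the most regular signal came from miR-518b (chr19:53702787-53702808). Its Ct was 30.07, 32.04 and 31.38 in controls 1 to 3 and 30.04, 31.42 and 34.71 in knockdowns 1 to 3. Knockdown 3 was the latest well, and the remaining knockdown wells lay within or just beyond the control range, so the groups overlapped. Relative to U6 the log2 levels were -15.33, -18.07 and -19.23 in controls and -15.16, -15.97 and -21.46 in knockdowns. The group means were -17.54 ± 2.00 and -17.53 ± 3.43 (SD, n = 3 each), and the log2 change was 0.01 (SE 1.49; limma, adjusted p = 0.999). Within series 1, 2 and 3 the knockdown minus control differences were 0.17, 2.10 and -2.23, which do not share a direction. The raw Ct of miR-518b spanned 4.67 cycles over the 6 samples. The median span of the 161 assays determined in every sample was 2.88 cycles, and 13 of them (8.07%) spanned at least as much as miR-518b.

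miR-519a was determined in 5 samples. Its 2 genomic copies (chr19:53752449-53752470 and chr19:53762397-53762418) give 1 target, so the signal cannot be assigned to either. The Ct was 33.39, 34.43 and 35.20 in controls 1 to 3, undetermined in knockdown 1, and 34.29 and 34.79 in knockdowns 2 and 3. The determined knockdown wells lay inside the control range. On the log2 scale relative to U6 the controls were at -18.65, -20.46 and -23.05 and knockdowns 2 and 3 at -18.85 and -21.54. The log2 change was 0.53 (SE 1.65, limma, adjusted p = 0.999). Within series 2 and 3 the knockdown sample was higher relative to U6 by 1.61 and 1.51. The knockdown minus control differences in raw Ct were only -0.14 and -0.42 cycles there. The mean U6 Ct was 13.97 in control 2 and 15.45 in knockdown 2, and 12.15 in control 3 and 13.25 in knockdown 3. Series 1 gave no difference, since knockdown 1 was undetermined where control 1 had a Ct of 33.39.

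miR-517a was determined in 4 samples, at Ct 31.46 and 33.41 in controls 2 and 3 and 31.35 and 33.58 in knockdowns 1 and 3. Relative to U6 the log2 levels were -17.49 and -21.26 in those controls and -16.47 and -20.33 in those knockdowns. The groups overlapped, and the log2 change relative to U6 was 0.97 (SE 1.81; limma, adjusted p = 0.999). The target is encoded both in MIR517A (chr19:53712321-53712342) and in MIR517B (chr19:53721118-53721139). The separate miR-517b assay, whose target is the same sequence shifted by 1 base with 21 bases in common, gave a Ct only in knockdown 1, at 33.96. The deposited name of that target is ppy-miR-517b, without the human prefix hsa, and in RefSeq it was found within the MIR517B hairpin only. miR-517c differs from miR-517a by C12U alone and shares its seed. Its Ct was 31.36 in control 3 and 34.50 in knockdown 3, and it was undetermined in the other 4 samples.

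miR-523 (chr19:53698437-53698459) had Ct values of 34.71 and 35.88 in controls 1 and 2 and of 34.85 and 34.55 in knockdowns 1 and 2, and was undetermined in both samples of series 3. Its levels relative to U6 were -19.98 and -21.91 in the controls and -19.97 and -19.10 in the knockdowns. The values of series 1 differed by only 0.0075, and in raw Ct knockdown 1 was later than control 1. The log2 change was 1.41 (SE 1.79) and was not called (limma, adjusted p = 0.999).

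2 further members were determined in 4 samples, too unevenly for a test. miR-519d, which has the seed of the miR-17 family, gave Ct 35.95 in control 1 and 33.33, 35.77 and 32.78 in knockdowns 1 to 3, and was undetermined in controls 2 and 3. Relative to U6 its 3 knockdown values were -18.45, -20.33 and -19.53, and its 1 control value was -21.22. miR-518f went the other way in detection: it gave 35.32, 36.43 and 33.28 in controls 1 to 3 and 35.25 in knockdown 1, with no signal in knockdowns 2 and 3. Neither difference in detection was tested.

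The remaining members gave isolated wells. miR-518e had a Ct of 35.51 in control 3 and 34.33 in knockdown 1. miR-522 was determined only in control 1, at Ct 30.79. miR-520g (32.76), miR-515-3p (34.91) and miR-520f (36.78) were determined only in knockdown 1. miR-519e (35.69) and miR-525 (37.02) appeared only in knockdown 2, and miR-520b (37.06) only in knockdown 3.

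**Figure D3:**
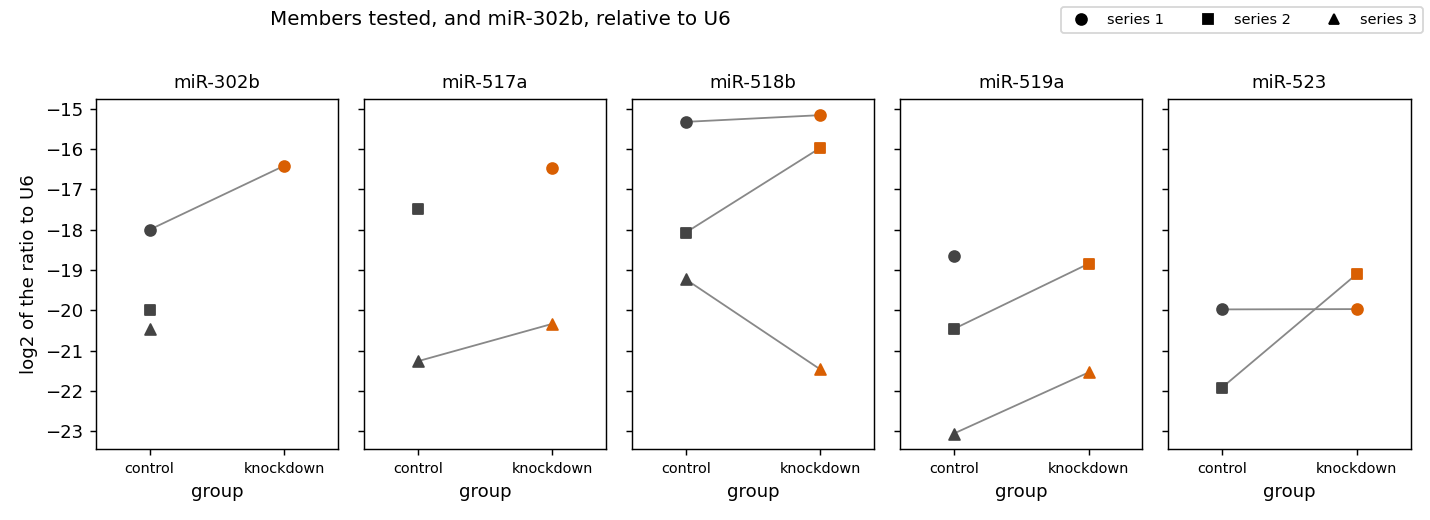
Log2 level relative to U6 in each determined sample (points) of the control and knockdown groups, for miR-302b and the 4 tested members; marker shapes give the series number and lines join samples of the same series. Control and knockdown points overlap for miR-517a, miR-518b and miR-519a, and the lines of miR-518b run in opposite directions (0.17, 2.10 and -2.23).

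Knockdown against control was tested over all 195 assays that were detected in at least 3 samples and determined in at least 2 of each group, and 0 were called (0%) at an adjusted p under 0.05; 0 had an unadjusted p under 0.05 (limma). 4 of the 41 members met that condition, all of them C19MC members, and 0 of the 4 were called. Their median log2 change was 0.75, beside -0.10 over all tested assays, as a description of members that passed a detection filter. With the mean Ct of the assays detected in all 6 samples as reference in place of U6, all 4 changes stayed positive (miR-517a 0.61, miR-518b 0.15, miR-519a 1.34 and miR-523 1.31). The SE of miR-518b was then 0.95, against 1.49 relative to U6. With that reference 3 of the 195 assays had an unadjusted p under 0.05 and 0 were called (limma). The fit relative to U6 could miss changes smaller than its spread, so 0 calls do not show equal levels. With no reference, in raw Ct turned so that more template is positive, miR-517a, miR-518b and miR-519a were at -0.030, -0.89 and -0.20 and miR-523 at 0.60, where the median of all tested assays was -1.0002. No member of the pluripotency group could be tested. Of the 161 assays determined in all 6 samples, 0 (0%) had control and knockdown values that did not overlap, and miR-518b is the 1 cluster member among them. In bulk RNA, fewer cells with a miRNA and less of it per cell cannot be told apart.

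The number of detected members per sample was 5, 4 and 5 of 41 in controls 1 to 3 and 9, 4 and 5 in knockdowns 1 to 3. Knockdown 1 was above every control, and the other knockdown samples lay within the control range. For C19MC the counts averaged 3.67 ± 0.577 in controls and 5.33 ± 2.52 in knockdowns (SD, n = 3 each), a difference of 1.67, which was 0.333 without knockdown 1. For the pluripotency group they were 1 ± 0 and 0.667 ± 0.577. Knockdown 1 also had the most detected assays outside the clusters, 217 of 336, where the other 5 samples had 183 to 204; the part of this in the member counts was not tested. Without knockdown 1 the number of silent C19MC assays was 22.

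More wells were determined for the 3p than for the 5p arm of the C19MC hairpins. Of 24 assays for the 3p arm, 15 were determined at least once and 38 of 144 wells gave a Ct (26.4%). Of 10 assays for the 5p arm, 1 was determined, miR-525 at Ct 37.02, which is 1 of 60 wells (1.67%). The sequence UAGAG, read on the miRNA strand only and looked for after the values had been seen, is in 17 of the 24 targets of the 3p arm. In those 17, 35 of 102 wells were determined (34.3%), and in the other 7, 3 of 42 (7.14%). Outside the clusters 4 of 336 targets hold it (1.19%), with 9 of 24 wells determined (37.5%), against 1213 of 1992 (60.9%) for the targets without it, so the order was the reverse there. The 1 target of the 5p arm with UAGAG, miR-518d-5p, had 0 of 6 wells determined. Many of these targets are near copies of each other, so the assays are not independent, and no test was made.

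Of the 6 seeds shared by at least 2 members, 3 had members with and without a signal. Both members gave a signal for UCGUGCA (miR-517a and miR-517c) and AGUGCCU (miR-515-3p and miR-519e), and neither did for UACAAAG (miR-520d-5p and miR-524-5p). The seed AAGUGCU is common to 8 members (miR-302a, b and c, miR-372, miR-373, miR-520a, miR-520b and miR-520e), of which 3 gave any signal, in 6 of 48 wells. The seed AAAGCGC is common to 5 members of the miR-518 family, with miR-518b in 6 and miR-518f in 4 samples and miR-518a-3p, miR-518c and miR-518d in none. miR-519a and miR-519c share the seed AAGUGCA and differ by C11U, U20G and G21A; the former was determined in 5 samples and the latter in 0. miR-520b and miR-520e differ by A16U alone, and gave 1 and 0 determined wells.

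Along the cluster, the first 31.9 kb held 13 assays with 8 of 78 wells determined (10.3%), the middle 31.9 kb 11 assays with 23 of 66 (34.8%), and the last 31.9 kb 7 assays with 8 of 42 (19.05%). The 3 assays whose targets have copies in more than 1 of these stretches gave 0 of 18. The cuts only divide the span evenly, and the stretches were not matched for arm. miR-523, with 4 of the 8 determined wells of the first stretch, begins at 31.7 kb, just before the cut. miR-523 and miR-518f lie within a few kb of miR-518b, and miR-520b, with 1 determined well, lies between miR-518f and miR-518b. The silent miR-518c lies in the same middle stretch as miR-518b.

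**Figure D4:**
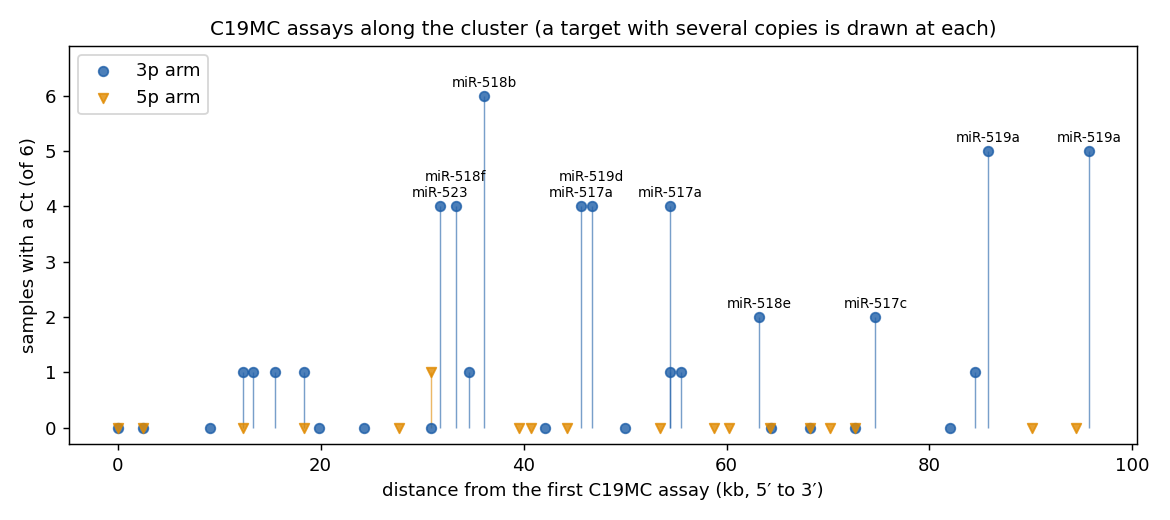
Number of samples with a Ct, of 6 (vertical axis), against the distance in kb from the first C19MC assay target (horizontal axis), with circles for the 3p arm and triangles for the 5p arm; a target with several copies is drawn at each. The single 5p triangle above 0 is miR-525, and miR-518b is the single assay at 6.

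The loss of wells was set beside other assays of similar Ct. An assay silent in all 6 samples has no mean Ct, so 23 members and 78 other assays are left out here. At a mean Ct of 30 to 32, 2 members were determined in 7 of 12 wells (58.3%) and 65 other assays in 279 of 390 (71.5%). At 32 to 34, 5 members were determined in 12 of 30 wells (40%) and 38 others in 107 of 228 (46.9%). At 34 and later, 11 members were determined in 25 of 66 wells (37.9%) and 17 others in 32 of 102 (31.4%). At 25 to 30, where no member lies, other assays were determined in 97.4% of wells. Wells were thus missing among late assays both inside and outside the clusters.

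**Figure D5:**
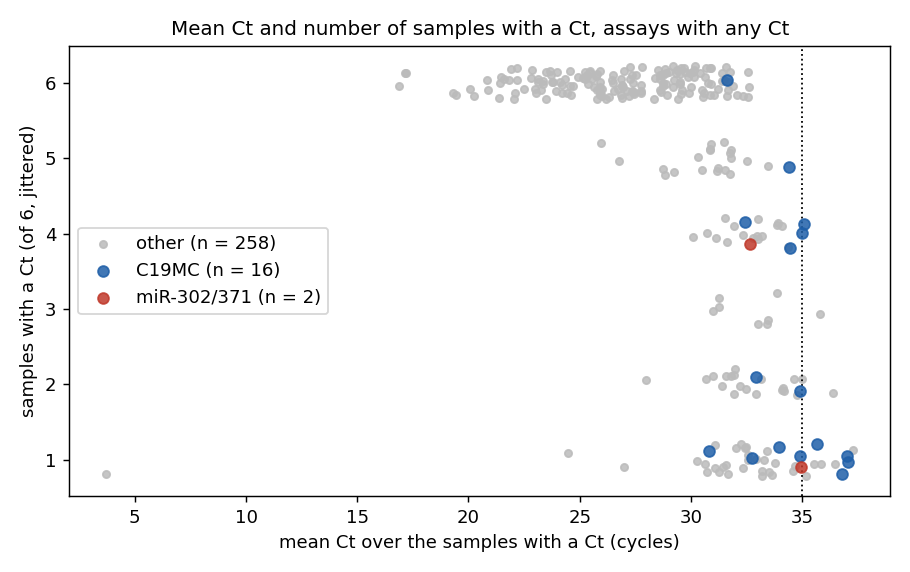
Number of samples in which an assay was determined (vertical axis) against its mean Ct over determined wells (horizontal axis, in cycles). Drawn are the 18 members and the 258 other human assays with at least 1 determined well. The members lie at the late end with the other late assays, and none has a mean Ct under 30.

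Outside the clusters, miRNAs with the same seed core gave early signals in these cells. The miR-17 family members miR-17, miR-20a, miR-20b, miR-93, miR-106a and miR-106b, which share the seed AAAGUGC with miR-519d, were determined in all 6 samples at Ct 16.2 to 25.3. miR-17 was at Ct 16.2, 16.6 and 16.6 in controls and 17.6, 18.3 and 17.7 in knockdowns. All 3 knockdown wells were later in raw Ct than every control well for miR-17 and for miR-20b. For miR-20a, miR-93, miR-106a and miR-106b the raw Ct values of the groups overlapped. With no reference the change went the same way, less template in knockdown, for 179 of the 195 tested assays. The median over those 195 was -1.0002, and how many had no overlap in raw Ct was not counted. Relative to U6 the log2 change of miR-17 was -0.46 (SE 1.46, limma, adjusted p = 0.999). Of the 6 relatives 0 were called, and their median log2 change relative to U6 was -0.33, with 5 lower and 1, miR-106a, higher (0.25). Leaving out 1 sample moved that median from -1.28 (without control 3) to 0.61 (without knockdown 3), and it was 0.47 without control 1, so its sign was not stable.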

How the data were processed

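The authors deposited raw Ct values, a score for each assay and sample, and a ratio to U6. The deposited ratio was recovered as 2 to the power of the mean U6 Ct minus the assay Ct, the log2 values differing by at most 6.77e-06. Per the labels' protocols, RNA was reverse transcribed with Megaplex Pool A primers and run on TaqMan cards on a 7900HT instrument. Threshold and baseline settings are not given in the sources used here. U6 came from 2 to 4 determined wells per sample, and a shift in U6 moves every ratio of that sample. The U6 wells of the same sample differed by up to 2.77 cycles. A Ct has no count behind it, so precision is limited by the 3 samples per group and the 1 well per miRNA.

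The log2 ratio was compared between groups with lmFit and eBayes of limma 3.58.1 under R 4.3.3 (two-sided tests; tables with Python 3.11.15) and Benjamini-Hochberg adjustment over all tested assays. Undetermined wells were missing. Assays were tested with a Ct under 35 in at least 3 samples and a value in at least 2 of each group; U6 and the plant control were left out. Alternatives changed the pairing, reference, normalization, undetermined wells, Ct limit and samples; those for the miR-17 family were chosen after seeing the data.

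Samples with the same series number correlated in their deviations from group means at r = 0.416, 0.527 and 0.625 over 161 assays, against -0.536 to 0.249 for different numbers. No label says that equal numbers mark pairs. The values in the results come from the fit without pairing, and the fit with the series number as a block was an alternative.

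Members, lists and tests were chosen with earlier results of these data known. Every member with a Ct under 35 in any sample is named with its values, and the others are named in lists. The authors' deposited fold changes were not used.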

Additional observations from a re-analysis of the deposited data

How the results depend on the processing

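No assay was called (0 of 157 to 205) under any of the 14 alternatives. The alternative without a Ct limit tested 195 assays with the same values as the main fit, so it is no separate check. With a replicate block for series number, which pairs the samples, 11 of 195 assays had an unadjusted p under 0.05 and the smallest adjusted p was 0.159 (limma). The log2 change of miR-519a was then 1.56 (SE 0.542, limma, unadjusted p 0.0272, adjusted p 0.757). That value rests on series 2 and 3 only, since knockdown 1 was undetermined, with 1 residual degree of freedom. The C19MC median was 1.17 with the block, and no call changed. Raw Ct without a reference, where the median of all assays was -1.0002 against -0.10 with U6, turned the log2 change of miR-517a to -0.030, of miR-518b to -0.89 and of miR-519a to -0.20. Quantile normalization gave -0.029 for miR-518b, and undetermined wells at Ct 40 gave -1.11 for miR-519a. Leaving out 1 sample moved miR-518b between -1.17 and 1.98, miR-519a between -0.64 and 1.56, and the C19MC median between -0.64 (without control 3, 3 members tested) and 1.69 (without knockdown 3, 2 members tested), so its members changed too.

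The counts of detected members depended on the Ct limit. With a limit of 32, the members detected in at least 3 samples fell to 0 for the pluripotency group and 1 for C19MC, the C19MC assays with no detected well rose to 30, and the mean difference in members detected per sample became 0.333 for the pluripotency group and -0.667 for C19MC. Asking for detection in all 6 samples left 0 and 1 members. The low signal and the single wells limit these values.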
